A study of Mus musculus with 8 samples.

Results

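Mouse skin treated with shikonin was compared with acetone-treated skin 24 h after application, on 4 of the 8 arrays of the series. Shikonin is a red naphthoquinone of Lithospermum roots, and acetone is the solvent in which it was applied. All animals were female C57BL/6JNarl mice, given in the methods as 6–8 weeks old, and carried no engineered allele. Abdominal skin received 100 μL of acetone alone, or the same volume of acetone with shikonin at 10 μg/μL, and whole skin was taken after 4 h or 24 h. The 24 h comparison holds 2 acetone arrays and 2 shikonin arrays, and the remaining 4 arrays are the matching 4 h groups, again 2 arrays each. The methods describe duplicate samples hybridised to separate chips, and the study refers to independent experiments. Neither they nor the labels tie an array to an animal, so every p-value measures the spread between these samples, and how far it holds differences between animals cannot be told.

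Skin renews from a basal layer of keratinocytes that move outward, exchange basal for suprabasal keratins, and end as corneocytes whose cornified envelope and extruded lipids hold water in. Hair follicles, sebaceous glands, a collagen-rich dermis, a fat layer and a thin muscle sheet lie in or below it. Damaged skin recruits neutrophils and then monocytes, and cells that sense type I interferon switch on a set of antiviral effector genes.

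Each array carried 29922 probes and gave 1 fluorescence intensity a probe, of which 13853 have a value on all 8 arrays and name 9987 genes. Array medians lay between 1129 and 1130. The arrays of a group had a Pearson correlation across probes of 0.988 for acetone 24 h and 0.991 for shikonin 24 h, against 0.778 to 0.792 between these groups (probes are not independent replicates). Intensities under 203 (the 5th percentile of all values, used as a floor) were set to 203 ahead of the log2 step, and values of 65000 or more were treated as saturated. A fold carries "at least" if the level of the dimmer group sits at this floor, or if the brighter group has a saturated array. Values after ± are standard errors of a log2 fold change (shikonin minus acetone) from limma, with n = 2 arrays in each group and Benjamini-Hochberg adjustment over all 13853 probes. "Rose" and "fell" are used at an adjusted p under 0.05. The acetone arrays themselves differed between times, with 29.6% of probes called between acetone 24 h and acetone 4 h. For that reason the shikonin 24 h arrays are also set against the acetone 4 h arrays where this turns the direction of a list or ends the call of a gene named here, a contrast that mixes treatment with time. Probes of near-identical genes, such as the Lce1 and Sprr2 families, may take up each other's RNA.

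At 24 h, 61.4% of probes were called, 29.0% higher and 32.3% lower with shikonin, so single calls were common and the size of a change carries more information than its call. Counted by named gene, 28.3% were higher and 33.7% lower, with a median log2 fold change over all genes of -0.05. The array values of the groups did not overlap in 79.7% of probes, with shikonin higher in 38.1% and lower in 41.6%. At least 8-fold changes were seen in 264 probes that rose and 209 that fell, and at least 64-fold changes in 17 and 13. Genes that went from the floor on both acetone arrays to at least 4-fold above it with shikonin numbered 72, and 95 went the opposite way. Of the 5350 probes that were not called, 1825 had a 95% interval of the log2 fold change within ±0.5, and the remaining intervals reached further from 0.

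The 25 genes that rose most and the 25 that fell most all passed against the acetone 4 h arrays too, with log2 fold changes of 2.39 to 6.09 and of -7.14 to -4.38. Of the 25 that rose, 24 were lower in acetone skin at 24 h than at 4 h. Where 2 pairs of intensities stand side by side, the acetone arrays come first. Slpi, a secreted inhibitor of neutrophil elastase, read 347 and 421 on the acetone arrays and 23914 and 24197 on the shikonin arrays (62.9-fold higher). Ch25h, which makes the oxysterol 25-hydroxycholesterol, read 309.9 and 443 against 20355 and 19045 (53.2-fold higher), and Upp1, a uridine phosphorylase, was 53.5-fold higher. The arrays of the groups were far apart for all of these genes. Car4, a membrane carbonic anhydrase, read 414 and 433 with acetone and 21893 and 22396 with shikonin, a log2 fold change of 5.71 ± 0.13. Among the leaders of the fall that belong to no epidermal envelope family, C1qtnf3, a secreted adipokine, read 13093 and 12864 with acetone and 259 and 242 with shikonin (-5.70 ± 0.13). Serpina3b, a serpin, fell from 22697 and 22631 to 385 and 384 (-5.88 ± 0.16), and Capns2, a small calpain subunit, by 37.2-fold.

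Genes of the outer epidermis fell together and by large amounts. Of 20 measured genes of suprabasal keratinocytes, 18 fell and the others were not called, with a median log2 fold change of -2.39, and of 16 genes of the cornified envelope 2 rose and 14 fell, with a median of -5.37. Against the acetone 4 h arrays the medians were -2.56 and -5.53. In bulk skin, fewer cells of a type and less RNA per cell cannot be told apart. Lor, which encodes the envelope protein loricrin, read 57846 and 55917 on the acetone arrays and 598 and 855 on the shikonin arrays. Flg, the precursor of filaggrin, read 25611 and 33418 against 157 and 160.5, so both shikonin arrays lay below the floor (at least 144-fold lower). Krt10, the main suprabasal keratin, read 65116 and 65479.7 with acetone and 783 and 801 with shikonin. The groups did not overlap for any of these 3 genes, as was so for 79.7% of all probes. Krt1, the partner keratin of Krt10, read 3261 and 4287 against 173 and 197 and was at least 18.4-fold lower. Ivl, the envelope protein involucrin, fell by 16.6-fold. The transglutaminases that cross-link the envelope fell less or not at all, with Tgm5 at -2.41 and Tgm1 at -0.14 (adjusted p = 0.352, 95% interval -0.41 to 0.14).

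**Figure D1:**
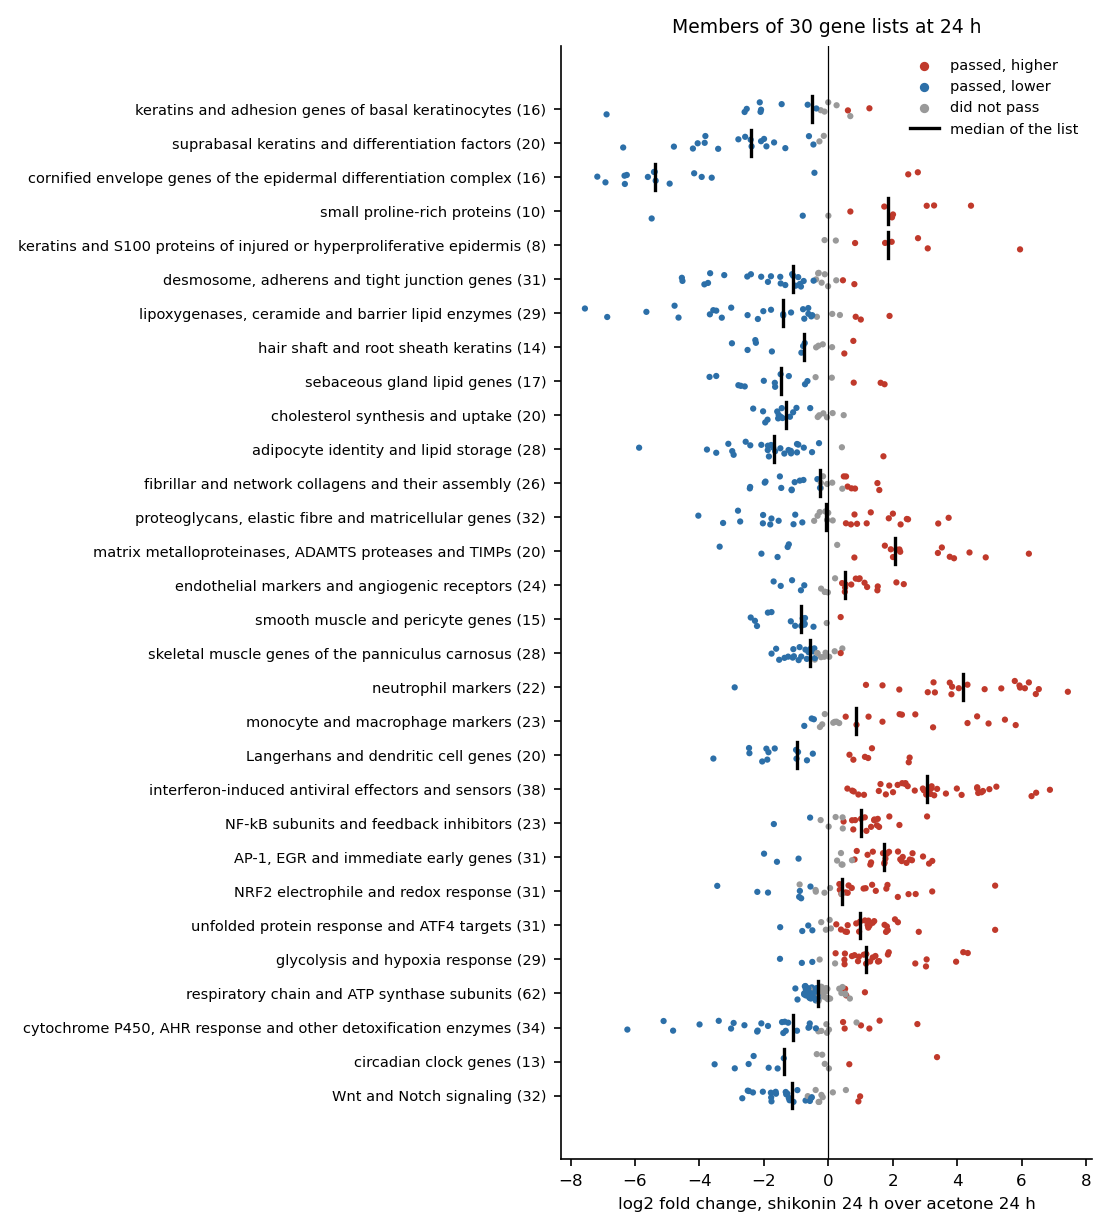
Log2 fold change of shikonin over acetone at 24 h (x axis) for each measured member of 30 gene lists (rows), coloured by whether limma called the gene higher, lower or neither, with a tick at the list median. Interferon effector and neutrophil genes lie to the right (medians 3.06 and 4.19), and cornified envelope and suprabasal genes to the left (medians -5.37 and -2.39).

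A few envelope genes went the other way. Lce3b and Lce3f, members of the late cornified envelope family that are known in human skin to be induced by barrier damage, rose. Lce3b read 551 and 389 on the acetone arrays and 3101 and 3261 on the shikonin arrays (2.78 ± 0.17), and Lce3f rose by 2.48 ± 0.09. By contrast all 10 measured Lce1 genes fell, by log2 fold changes of -6.92 to -3.93. The rise of the Lce3 genes depended on the acetone time point: against the acetone 4 h arrays Lce3b stood at 0.56 (adjusted p = 0.0174) and Lce3f at 0.14 (adjusted p = 0.225).

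The Sprr genes, small proline-rich envelope proteins of stressed epidermis, showed the same dependence more widely. Of 10 measured, 7 rose and 2 fell at 24 h, with a median of 1.86. Sprr2f read 252 and 253 on the acetone 24 h arrays and 5046 and 5886 on the shikonin 24 h arrays, a 21.6-fold rise, but 5132 and 4984 on the acetone 4 h arrays. The list was lower in acetone skin at 24 h than at 4 h (median -2.91), and against the acetone 4 h arrays 7 genes were lower and the others not called, with a median of -0.98. Sprr4 was the exception, with -5.48 ± 0.10 at 24 h and -5.42 against the acetone 4 h arrays. Keratins of stressed epidermis gave a like picture: Krt6a rose by 1.77 ± 0.11 and Krt16 by 1.97 ± 0.17, and against the acetone 4 h arrays they stood at 0.23 (adjusted p = 0.100) and -0.74 (adjusted p = 0.00458). Other probes of Krt6a rose by 2.64 and 2.49 at 24 h.

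In the basal layer the changes were mixed. Of 16 measured genes, 2 rose and 9 fell (median -0.50). Krt15, a keratin of basal cells and of the hair bulge, read 32384 and 37019.7 on the acetone arrays and 282 and 306 on the shikonin arrays, the largest fall of the list at -6.88 ± 0.15. Krt5, the pan-basal keratin, fell from 15607 and 13334 to 2750.3 and 2267 (5.78-fold), and its partner Krt14 was saturated in both groups, so no fold can be given. Trp63, the transcription factor that maintains stratified epithelium, fell (-2.13 ± 0.16), and Col17a1, a collagen of the hemidesmosome, fell too (-2.10 ± 0.14). Lama3, a chain of the basement membrane laminin, rose instead (1.28 ± 0.11). Summed over the list, basal marker intensity was 189109 and 190638 on the acetone arrays and 122825 and 119369 on the shikonin arrays. The suprabasal sum went from 420019 and 435992 to 89892 and 86971. Saturated values enter both sums (Krt14 in the basal list, Krt10 with acetone in the suprabasal list), so the sums may understate the changes.

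Cell junctions of the epidermis followed the suprabasal genes. Of 31 genes of desmosomes, tight junctions and adherens junctions, 22 fell and 2 rose (median -1.09). Dsc1, a desmocollin of the upper layers, read 26130.1 and 25553 with acetone and 1015 and 1209.6 with shikonin (-4.54 ± 0.13), though its second probe stood at -0.16 and was not called. Dsg1a, the matching desmoglein, was at least 14.4-fold lower, and the plaque proteins periplakin (Ppl, -3.73) and envoplakin (Evpl, -3.23) fell too. Cgn, which encodes the tight junction protein cingulin, read 9422 and 9511 against 404 and 418 (-4.52 ± 0.11). Cdh1, E-cadherin, fell (-1.12 ± 0.16), and Ctnnb1, its binding partner beta-catenin, rose by 0.81 ± 0.08. Jup, Cldn7 and Ctnna1 were among the 7 members that were not called (-0.31, -0.20 and -0.11), although the other probe of Jup fell by 1.99.

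Lipid enzymes of the water barrier fell as broadly, with 23 of 29 lower, 3 higher and a median of -1.40. Alox12e, a mouse epidermal lipoxygenase, read 38095 and 38769 on the acetone arrays and 195 and 206 on the shikonin arrays (-7.55 ± 0.10), with 1 shikonin array under the floor. Acer1, a ceramidase, read 19076 and 18399.8 against 355 and 395 (-5.64 ± 0.11). Elovl4, which makes very long fatty acids for barrier ceramides, fell (-3.30 ± 0.15), and Sptlc3, a subunit of the enzyme that starts sphingolipid synthesis, fell too (-3.67 ± 0.12). Its fellow subunit Sptlc2 was not called (0.36, adjusted p = 0.0611). Sgms2, a sphingomyelin synthase, was at least 3.74-fold higher. Fa2h, the fatty acid 2-hydroxylase, read 23609 and 23666 against 179.8 and 189 at 24 h but had changed by only -0.40 at 4 h (adjusted p = 0.0102), and the difference of the effects passed (-6.46). Of 16 epidermal proteases and their inhibitors, 10 fell and 2 rose. Casp14, the caspase of cornifying cells, fell (-5.11 ± 0.12), as did the kallikrein Klk5 (-2.86 ± 0.14) and its inhibitor Spink5 (-2.66 ± 0.17), whereas Klk6 rose (1.27 ± 0.13).

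**Figure D2:**
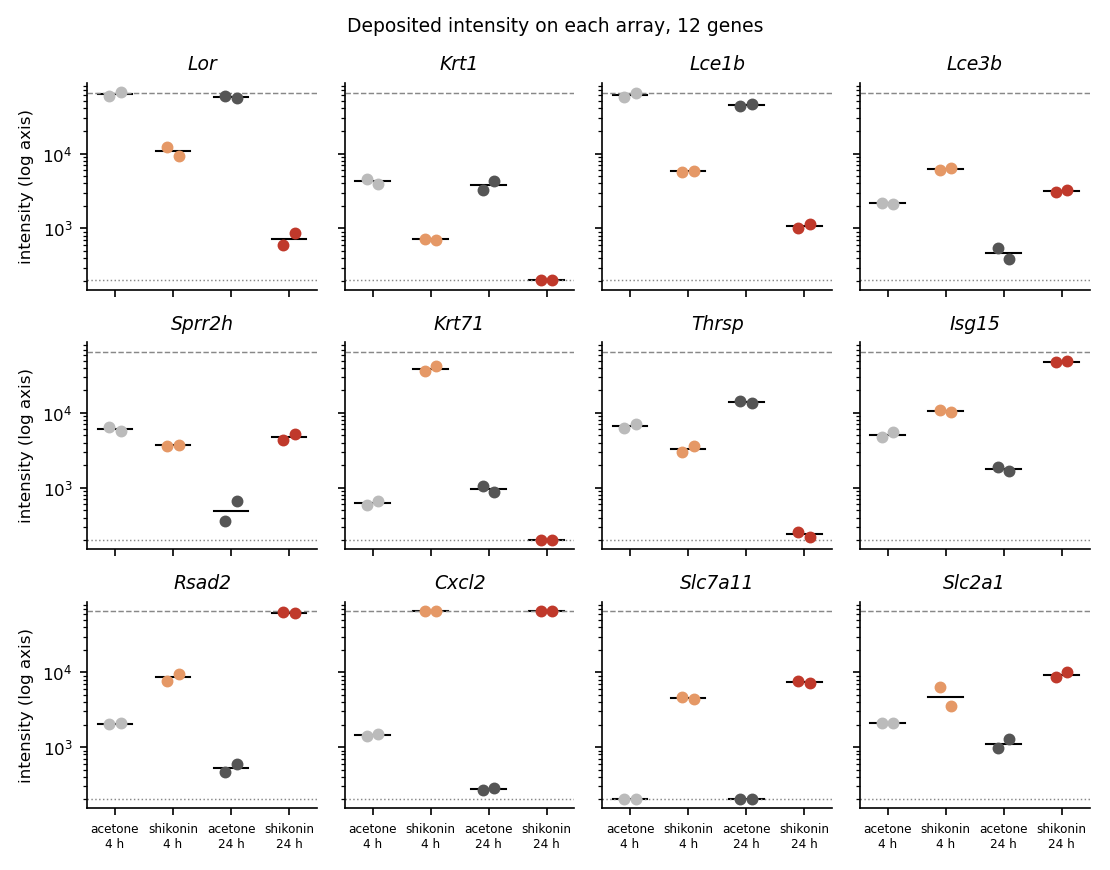
Deposited fluorescence intensity of 12 genes on each array (log axis) in the 4 groups, ordered by time and then by treatment, with values under the floor of 203 drawn at it (dotted line) and saturation at 65000 as a dashed line. Each point is 1 array and each bar the geometric mean of a group. Lor, Krt1 and Thrsp lie lower on both shikonin 24 h arrays than on both acetone 24 h arrays, and Isg15, Rsad2, Cxcl2, Slc7a11 and Slc2a1 higher.

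Hair follicle genes showed opposite changes at the 2 times. Of 14 measured genes of the hair shaft and inner root sheath, 13 rose at 4 h with a median of 4.79, whereas at 24 h 2 rose and 8 fell with a median of -0.75. Krt71, a keratin of the inner root sheath, read 588 and 675 on the acetone 4 h arrays and 35746 and 42769 on the shikonin 4 h arrays. At 24 h it read 1069 and 869.8 with acetone and 104 and 112 with shikonin, at least 4.74-fold lower. Krt27 (at least 4.80-fold) and Krt73 (at least 7.94-fold), of the same sheath, were lower at 24 h too. The shaft keratins Krt35 (0.78 ± 0.21) and Krt86 (at least 1.41-fold higher) were the 2 that rose, and neither call held without acetone replicate 1 (log2 fold changes 0.67 and 0.50) or without shikonin replicate 1 (0.60 and 0.30). The difference of effects passed as lower in 13 of the 14 genes, and the summed intensity of the list on the shikonin arrays was 271146 and 252277 at 4 h and 6116 and 5062 at 24 h.

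Regulators of the follicle and its stem cells fell more than they rose (11 lower and 1 higher of 19, median -1.63). Gata3, a factor of the inner root sheath that is also used by T cells, read 3138 and 3539 on the acetone arrays and 264 and 257 on the shikonin arrays (-3.68 ± 0.13). Dlx3 (-3.16), Sox9 (-1.84) and the growth factor Bmp4 (-1.74) fell. Fgf7, a fibroblast growth factor that acts on keratinocytes, was the 1 member that rose, from 218 and 188 to 1034 and 1249.8 (5.40-fold). In the melanocyte list 7 of 12 fell and 2 rose, the endothelin receptor Ednrb (0.86 ± 0.13) and Rab27a (0.83 ± 0.12), which carries pigment granules. Against the acetone 4 h arrays Ednrb stood at 0.25 (adjusted p = 0.132). The pigment enzymes Dct (-3.40 ± 0.14, though its other probe stood at -0.22 and was not called) and Tyrp1 (-3.16 ± 0.12) led the fall, and both had been higher at 4 h (1.97 and 1.16).

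Genes of sebaceous glands and fat fell. Of 17 sebaceous genes 12 fell and 3 rose (median -1.48), and of 28 adipocyte genes 26 fell and 1 rose (median -1.68, or -1.15 against the acetone 4 h arrays). Thrsp, a regulator of lipid synthesis in fat, read 14491 and 13436 on the acetone arrays and 257 and 222 on the shikonin arrays (58.5-fold lower). Fatty acid synthase (Fasn) read 62277 and 63593 against 8773 and 7706, and Acacb, an acetyl-CoA carboxylase, fell (-3.76 ± 0.14). The shikonin arrays lay below the acetone arrays for each of these enzymes, as was so for 41.6% of all probes. Adipoq, which encodes the fat hormone adiponectin, fell from 52524 and 53185 to 13705 and 15108 (3.67-fold), and the lipid droplet protein perilipin 1 (Plin1) (-1.84 ± 0.15). Fabp4, a fatty acid binding protein of fat, was not called (0.42, adjusted p = 0.463). Cebpb, a factor of early fat cell differentiation and of inflammation, was the only member that rose (1.71 ± 0.09), and Plin2, a droplet protein of many cell types, rose in the sebaceous list (1.75 ± 0.17). The summed intensity of the adipocyte list was 573201 and 550997 on the acetone arrays and 219376 and 220292 on the shikonin arrays.

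Genes of cholesterol synthesis fell too, with 14 of 20 lower, the others not called and a median of -1.30. At 4 h the median was 0.08. Lanosterol synthase (Lss) read 3526 and 3270.1 with acetone and 702 and 649.6 with shikonin, a change of -2.33 ± 0.12. Cyp51 (-1.88 ± 0.11) and Msmo1 (-2.02 ± 0.12), which act after it, and Fdps (-1.42 ± 0.11), which acts before it, fell as well. The other probe of Cyp51 stood at -0.76. Srebf2, the transcription factor of the pathway, was not called (-0.28, adjusted p = 0.146).

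Matrix genes of the dermis moved both ways. Of 26 genes of collagens and their processing, 7 rose and 13 fell. Col1a1 read 24683 and 25841 on the acetone arrays and 4679.5 and 4736 on the shikonin arrays (5.36-fold lower), and Col1a2, its partner chain, fell (-1.13 ± 0.26), a call that was lost without shikonin replicate 1 (-0.78, adjusted p = 0.0589). Col7a1, the anchoring fibril collagen, fell (-2.43 ± 0.15). The basement membrane collagens Col4a1 (0.72 ± 0.10) and Col18a1 (1.53 ± 0.25) rose, as did Plod2, a lysyl hydroxylase (1.59 ± 0.21). Against the acetone 4 h arrays Col18a1 stood at 0.28 (adjusted p = 0.357). Col3a1 was not called and had saturated arrays, so no fold is given. Of 32 further matrix genes 13 rose (40.6%) and 12 fell (37.5%), and against the acetone 4 h arrays 9 were higher and 16 lower. Tnc, the wound matrix protein tenascin C, read 3753 and 3632 with acetone and 38095 and 40697 with shikonin, and Vcan (versican) rose by 2.48 ± 0.12, with its other probe not called at -0.18. Mfap4, a microfibril protein, read 3486 and 3211 against 206 and 186 (16.4-fold lower), and Eln (elastin) fell (-2.03 ± 0.11). The groups did not overlap for any of these 4 genes, as was so for 79.7% of all probes.

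Matrix proteases and their inhibitors rose in the main, 14 higher and 5 lower of 20, with a median of 2.06 against -0.05 for all genes. Mmp13, a collagenase, read 1868 and 1473 on the acetone arrays and 32122 and 37420.3 on the shikonin arrays (4.39 ± 0.19). Adamts4, an aggrecanase, read 197 and 249.6 against 6333 and 7039.5 (29.6-fold higher), and Mmp3, stromelysin 1, rose by 3.53 ± 0.10. The inhibitors split: Timp1 rose by 3.90 ± 0.11 and Timp3 fell (-3.37 ± 0.09). The other probe of Timp3 stood at -0.97. Mmp2, a gelatinase of fibroblasts, fell (-1.22 ± 0.11), while Mmp9, a gelatinase carried by neutrophils among other cells, rose (3.77 ± 0.12). Neutrophil markers rose on the same arrays, and which cells the RNA of either gelatinase came from was not tested.

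Among cells of the dermis, endothelial genes rose more often than they fell (14 and 5 of 24, median 0.52), after 6 higher and 11 lower at 4 h. Kdr, the main VEGF receptor, read 844 and 925 with acetone and 3661 and 4009 with shikonin (2.12 ± 0.14), and at 4 h it had stood at -0.81. Angpt2, an angiopoietin that destabilises vessels, rose by 2.35 ± 0.23 and Cdh5, the endothelial cadherin, by 1.13 ± 0.11. Vwf fell (-1.69), and Tek and Tie1, the angiopoietin receptor and its relative, were not called (-0.01 and -0.09). Vegfa itself was not called (0.21, adjusted p = 0.0558, 95% interval 0.02 to 0.41). Smooth muscle genes fell in 13 of 15 cases and rose in 1, led in the fall by the myosin heavy chain Myh11 (-2.41 ± 0.11). Skeletal muscle genes, of the muscle sheet below the skin, fell in 18 of 28 and rose in 1, with summed intensities of 407943 and 391703 on the acetone arrays and 238704 and 253295 on the shikonin arrays. They had fallen in 23 of 28 at 4 h, and how much muscle each skin piece held was not tested.

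Leukocyte genes divided by cell type. Of 22 neutrophil markers 21 rose and 1 fell (median 4.19), and their summed intensity was 34479.8 and 33987 on the acetone 24 h arrays and 481284 and 493344 on the shikonin 24 h arrays, beside 113852 and 104624 on the acetone 4 h arrays. The granule proteins did not move alike. Ngp, a secondary granule protein, read 93.9 and 78.6 with acetone and 2848 and 2917 with shikonin and was at least 14.2-fold higher, and lactoferrin (Ltf) rose by 3.27 ± 0.19. Mpo, the myeloperoxidase of primary granules, was the 1 marker that fell, from 4024 and 4149.5 to 590.2 and 505 (7.48-fold). Fpr2, a formyl peptide receptor, read 308 and 272 against 20696 and 19157 and rose 68.8-fold. Ppbp, a chemokine of platelets, rose from 125 and 116 to 9705 and 9099.6 and was at least 46.2-fold higher, while the platelet receptor subunit Gp9 fell (-1.20 ± 0.17).

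Macrophage genes rose in part. Of 23 listed, 13 rose and 3 fell (median 0.88). Arg1, the arginase of alternatively activated macrophages, read 256 and 235 on the acetone arrays and 13934 and 13795 on the shikonin arrays (56.5-fold higher). Msr1, a scavenger receptor, was at least 20.0-fold higher, and Ccr2, the chemokine receptor of inflammatory monocytes, rose by 2.29 ± 0.27. The complement genes C1qa, C1qb and C1qc (-0.11, 0.16 and -0.19), the pan-macrophage marker Adgre1 (-0.26, adjusted p = 0.189) and the resident markers Timd4 and Folr2 (0.20 and 0.26) did not pass the test. Lyve1, shared by resident macrophages and lymphatic vessels, fell (-0.74 ± 0.15).

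Genes of dendritic and Langerhans cells fell in 13 of 20 cases and rose in 7 (median -0.96). Cd207, the langerin of Langerhans cells, read 11592 and 9341 with acetone and 908 and 851 with shikonin, an 11.8-fold fall, whereas at 4 h it had risen by 0.82 (adjusted p = 0.00117). The class II genes H2-Eb1 (-2.45 ± 0.16), H2-Aa (-1.66 ± 0.11) and Cd74 (-1.86 ± 0.16) fell together. Among the 7 that rose, Ccr7, the receptor that guides dendritic cells to lymph nodes, was at least 5.76-fold higher, and Cd40, a costimulatory receptor, read 281 and 286 against 1726 and 1486 (2.50 ± 0.18). Of 16 T and NK cell genes 4 rose and 5 fell, smaller shares than the 28.3% and 33.7% of all named genes. The lowest value of the list, -3.68, is the value given above for Gata3, which is also a factor of the inner root sheath. Cd3e and Cd3g of the T cell receptor complex were not called (-0.10 and -0.04). Klrk1, the NKG2D receptor, rose by 2.14 ± 0.15, and Il7r, a cytokine receptor of lymphocytes, by 2.30 ± 0.15. The other probe of Il7r rose by 0.72. Mast cell genes fell in 5 of 10 cases and rose in 3 (median -0.20). The protease Mcpt4 fell (-0.76 ± 0.11), and Hdc, the histamine-forming enzyme, was at least 41.4-fold higher.

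**Figure D3:**
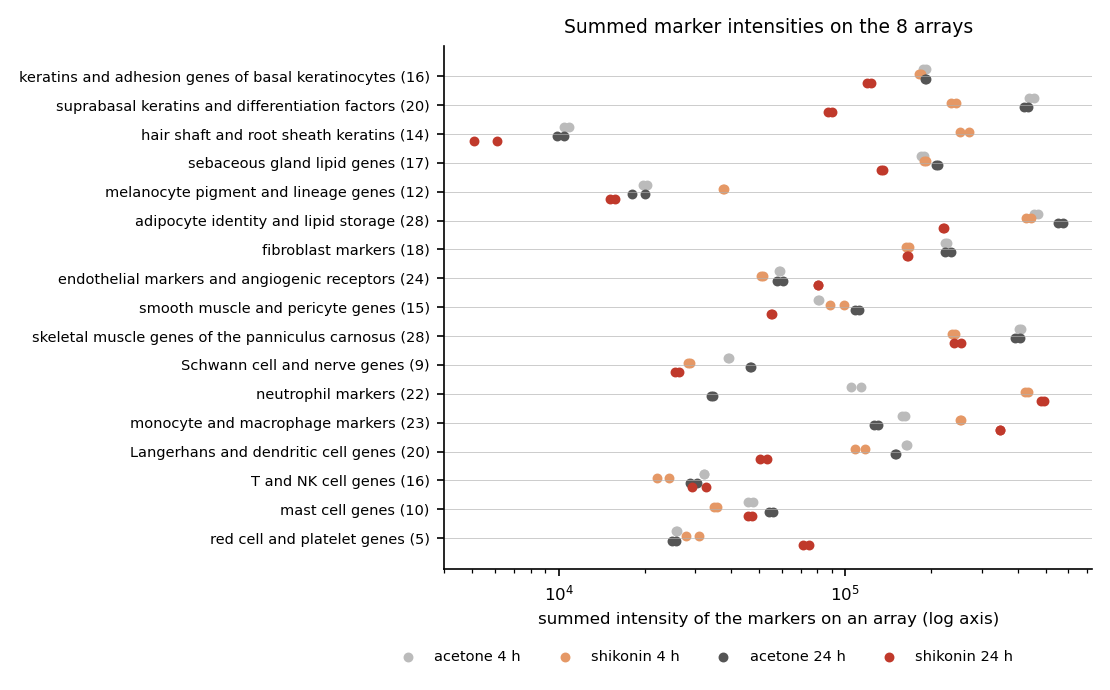
Summed fluorescence intensity of 17 cell type marker lists (rows) on each of the 8 arrays (x axis, log scale), with 1 point an array and colours for the 4 groups. Neutrophil and macrophage sums lie higher on the shikonin 24 h arrays than on the acetone 24 h arrays, and suprabasal keratinocyte, adipocyte and dendritic sums lower.

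Interferon effector genes rose at 24 h. All 38 of 38 measured effectors were higher at 24 h, with a median of 3.06, after 11 higher and 9 lower at 4 h (median -0.07). Iigp1 counts here by its brighter probe, and its other probe was not called at 24 h (0.43, adjusted p = 0.0810). The difference of effects passed as higher in 34 of the 38, and against the acetone 4 h arrays 34 were higher, 1 was lower (Iigp1, -1.46) and the median was 2.43. Ifitm3 (adjusted p = 0.205) and Cgas (0.51, adjusted p = 0.0729) were among those not called there. Rsad2 (viperin), which makes a chain-terminating nucleotide, read 464 and 604 on the acetone arrays and 62811 and 62098 on the shikonin arrays. Isg15, a ubiquitin-like modifier, read 1918 and 1649 against 47179 and 48958 (27.0-fold higher), and Ifit3, of a family that blocks foreign RNA, read 968 and 819 against 28359 and 38814 (37.3-fold higher). Shikonin arrays lay above acetone arrays for all of them, as was so for 38.1% of all probes. The exonuclease Isg20 was 32.1-fold higher. The GTPase Mx1 rose by 4.66 ± 0.16, and the RNA sensors Ifih1 and Ddx58 by 2.38 ± 0.14 and 3.20 ± 0.20. The other probe of Ddx58 rose by 1.69. The smallest rises were those of Sting1 (0.59 ± 0.21), Ifitm3 (at least 1.68-fold) and the DNA sensor Cgas (0.79 ± 0.22). Without 1 array of the 24 h groups at a time, 36 to 38 of the effectors were called higher, and the calls lost were those of Sting1 (0.46 without shikonin replicate 1, adjusted p = 0.199) and Cgas (0.75, adjusted p = 0.0770).

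Signalling genes of the pathway moved with its effectors. Of 28 receptors, kinases, STATs, IRFs and inhibitors, 19 rose and 3 fell (median 0.96). Irf7, which amplifies type I interferon, read 2119 and 1835 with acetone and 28488 and 27653 with shikonin (14.2-fold higher). Stat2 rose by 2.86 ± 0.19, Irf9 by 1.97 ± 0.22 and the receptor chain Ifnar1 by 2.46 ± 0.16. The feedback inhibitors Usp18 (536 and 652 with acetone, 23823 and 21103 with shikonin) and Socs3 (3.27 ± 0.10) rose too. Ifng, the type II interferon, lay at or near the floor in both groups, and no fold is given. Of 15 class I presentation genes 8 rose and 2 fell (median 0.41), and against the acetone 4 h arrays the median was 0.02. The immunoproteasome subunit Psmb8 rose by 0.88 ± 0.16 at 24 h but stood at -0.01 against the acetone 4 h arrays (adjusted p = 0.972).

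The promoters of 4 effectors are shown, of which 3 carry the letters of the interferon-stimulated response element, searched on both strands as the letters GAAA, any pair of bases, and GAAA again, in windows of 250 bases before to 50 after each start site (RefSeq, GRCm38.p6). Promoters were found for 8050 of the 9987 measured genes. The letters occur in 3.44% of all 32851 mouse promoters in the table, and in 52.9% of the 34 promoters found for the effector list. Counted by gene, they occur in 3.58% of the measured genes with a promoter, in 12.2% of those called and at least 8-fold higher, and in 3.25% of those at least 8-fold lower. The 250 bases before the start site follow, on the strand of the gene, with matches in capitals. Isg15 (chr4:156200819-156201068, minus strand) has 3 matches that overlap one another, starting 78, 72 and 66 bases before the start site. Ifit3 (chr19:34583279-34583528, plus strand) has 2, Rsad2 (chr12:26456453-26456702, minus strand) has 1, and Oasl1 (chr5:114922990-114923239, plus strand), which rose by 87.7-fold, has none, which says only that these letters are not in this window.
Isg15: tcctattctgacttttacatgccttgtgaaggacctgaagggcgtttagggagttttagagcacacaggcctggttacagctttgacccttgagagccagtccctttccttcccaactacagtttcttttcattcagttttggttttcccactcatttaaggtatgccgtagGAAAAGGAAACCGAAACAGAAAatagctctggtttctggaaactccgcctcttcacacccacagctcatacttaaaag
Ifit3: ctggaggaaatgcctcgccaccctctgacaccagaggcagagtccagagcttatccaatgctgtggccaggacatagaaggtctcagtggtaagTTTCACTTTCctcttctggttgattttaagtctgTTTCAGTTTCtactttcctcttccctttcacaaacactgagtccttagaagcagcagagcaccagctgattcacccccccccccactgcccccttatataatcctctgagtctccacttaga
Rsad2: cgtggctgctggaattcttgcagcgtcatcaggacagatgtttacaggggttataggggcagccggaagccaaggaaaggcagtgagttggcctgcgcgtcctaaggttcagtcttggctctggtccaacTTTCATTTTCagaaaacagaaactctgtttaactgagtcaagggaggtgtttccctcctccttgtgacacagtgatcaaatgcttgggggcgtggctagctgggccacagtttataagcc
Oasl1: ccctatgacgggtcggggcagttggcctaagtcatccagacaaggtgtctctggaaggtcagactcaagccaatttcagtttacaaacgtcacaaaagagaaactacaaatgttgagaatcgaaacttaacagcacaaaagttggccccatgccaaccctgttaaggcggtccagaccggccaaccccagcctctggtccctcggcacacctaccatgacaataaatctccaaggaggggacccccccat

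Genes of the NF-kB pathway rose in 16 of 23 cases and fell in 2 (median 1.02). Tnfaip3, the inhibitor A20, read 861 and 1062 on the acetone arrays and 7798 and 8247 on the shikonin arrays (8.39-fold higher). Nfkbia, the inhibitor IkB-alpha, rose from 3106 and 6286 to 21407 and 19520.4 (4.63-fold), and Nfkbie by 1.90 ± 0.20. The subunits changed less, with Relb at 0.84, Nfkb2 at 1.19, Rela at 0.45 and Nfkb1 at 0.23, the last 2 not called. Card14, a scaffold of keratinocytes, fell (-1.69 ± 0.14). The NF-kB motif occurs in 8.46% of all promoters and, by gene, in 12.4% of measured genes, in 47.1% of the 17 genes of the list with a promoter, in 18.4% of genes at least 8-fold higher and in 4.07% of those at least 8-fold lower. Cxcl2 (chr5:90903649-90903898, plus strand), a neutrophil chemokine that read 267 and 285 with acetone and 65480.4 and 65478 with shikonin, is shown with Nfkbia (chr12:55492648-55492897, minus strand) as a target and an inhibitor of the pathway. The 2 matches of Cxcl2 overlap, 1 on each strand, and Nfkbia has 1.
Cxcl2: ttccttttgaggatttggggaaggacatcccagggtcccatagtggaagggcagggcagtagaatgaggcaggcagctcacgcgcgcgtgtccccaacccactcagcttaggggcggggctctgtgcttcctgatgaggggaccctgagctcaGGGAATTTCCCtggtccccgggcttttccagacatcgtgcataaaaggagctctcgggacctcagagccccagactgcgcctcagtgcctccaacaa
Nfkbia: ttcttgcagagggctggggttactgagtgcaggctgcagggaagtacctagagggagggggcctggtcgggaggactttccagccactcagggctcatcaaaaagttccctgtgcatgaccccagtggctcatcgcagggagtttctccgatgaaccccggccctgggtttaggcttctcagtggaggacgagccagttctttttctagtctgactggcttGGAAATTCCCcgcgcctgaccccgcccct

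Immediate early genes and their feedback phosphatases rose, 23 of 31 with 3 lower and a median of 1.74. The growth arrest gene Gadd45b read 603 and 684 with acetone and 5433 and 5816 with shikonin (8.75-fold higher), and the MAP kinase phosphatases Dusp1 and Dusp6 rose by 2.62 ± 0.18 and 2.43 ± 0.19. Fos rose by 2.17 ± 0.08 and Junb by 1.70 ± 0.09, while Jun was not called (0.27). Fosl1 rose by 3.23 ± 0.14, but it stood at -0.0017 against the acetone 4 h arrays (adjusted p = 0.994). Klf4, a factor of the suprabasal epidermis, fell (-1.99 ± 0.10). The AP-1 letters TGANTCA, the same on both strands, occur in 7.81% of all promoters and, by gene, in 7.23% of measured genes, in 17.0% of those at least 8-fold higher and in 13.8% of those at least 8-fold lower. Lor (chr3:92083143-92083392, minus strand) has a match 48 bases before its start site and is shown as a gene that fell.
Lor: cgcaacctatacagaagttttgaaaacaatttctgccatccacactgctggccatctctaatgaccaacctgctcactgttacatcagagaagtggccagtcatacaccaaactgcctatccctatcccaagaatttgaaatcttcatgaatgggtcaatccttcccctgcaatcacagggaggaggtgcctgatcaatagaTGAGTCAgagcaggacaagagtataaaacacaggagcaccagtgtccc

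The IL-1 family split by member. Of 20 genes 13 rose and 7 fell (median 1.68). Il1b read 541 and 702 on the acetone arrays and 47406 and 32718 on the shikonin arrays (63.9-fold higher). Il33, an alarmin of epithelium, rose by 3.10 ± 0.10 and the receptor antagonist Il1rn by 3.16 ± 0.13. Within the IL-36 branch, Il1f9 (IL-36 gamma) rose by 2.79 ± 0.27. Il1f6 (IL-36 alpha, -3.85 ± 0.12), Il1f8 (IL-36 beta, -3.01 ± 0.15) and Il1f5 (the IL-36 receptor antagonist, -4.29 ± 0.14) fell. Of 21 genes of pyroptosis and necroptosis 13 rose and 6 fell (3 fell without shikonin replicate 1). The nucleic acid sensor Zbp1, which is itself induced by interferon, was at least 9.78-fold higher, the kinase Ripk3 read 617 and 609 against 3369 and 3386 (2.46 ± 0.18), and its substrate Mlkl was at least 4.52-fold higher. The gasdermins differed: Gsdmd (1.31 ± 0.14, other probe 2.93) and Gsdme (2.75 ± 0.22) rose, and Gsdma (-2.43 ± 0.13) and Gsdmc (at least 4.69-fold lower), which are expressed in epithelium, fell. Among apoptosis genes Pmaip1 (NOXA, 3.03 ± 0.14) and the inhibitor Bcl2l1 (2.27 ± 0.14) rose most.

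Lipid mediator and arginine metabolism genes rose in 14 of 22 cases and fell in 5. Ptgs2, the inducible cyclooxygenase, read 116 and 97.7 with acetone and 6852 and 8575 with shikonin and was at least 37.7-fold higher. By contrast Ptgs1, the constitutive form, fell from 4666 and 5445 to 403 and 467 (11.6-fold), and its other probe stood at -1.81. The prostaglandin-degrading Hpgd fell as well (-2.24 ± 0.18). Arg2 rose by 4.82 ± 0.25 and Odc1, the entry enzyme of polyamine synthesis, by 3.41 ± 0.34. In the coagulation list 14 of 20 rose and 4 fell. Plaur, the urokinase receptor, read 547 and 519.9 against 16058 and 16725 (30.7-fold higher), coagulation factor X (F10) rose by 4.62 ± 0.17 and tissue factor (F3) by 2.08 ± 0.21, and the thrombin receptor F2r fell (-2.73 ± 0.11). Complement genes were mixed, 7 higher (36.8%) and 6 lower (31.6%) of 19, beside 28.3% and 33.7% of all named genes. Without acetone replicate 1 the lower count was 3, and against the acetone 4 h arrays 7 were higher and 8 lower. Factor B (Cfb) stood at 2.86 ± 0.15 and C2, a neighbouring gene with a related product, at -1.11 ± 0.12.

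Oxidative and metal stress genes rose in part. Of 31 genes of the NRF2 antioxidant response and glutathione metabolism, 18 rose and 7 fell (median 0.42). Slc7a11, which imports cystine for glutathione, read 104 and 78.6 on the acetone arrays and 7647 and 7124 on the shikonin arrays, at least 36.3-fold higher. Hmox1, the inducible heme oxygenase, rose from 3286 and 3452 to 23221 and 21051 (6.56-fold), and at 4 h it had risen by 3.39. Gsr (2.49 ± 0.21), Srxn1 (1.48 ± 0.13), Txnrd1 (1.10 ± 0.18) and Gclm (1.16 ± 0.12) rose less by the probes read here. The other probes of Srxn1 rose by 2.42 and 2.81. Against the acetone 4 h arrays Txnrd1 stood at 0.25 (adjusted p = 0.273) and Srxn1 at 0.50 (adjusted p = 0.00878). The glutathione transferase Gsta3 (-3.45 ± 0.11) and the lipogenic malic enzyme Me1 (-2.20 ± 0.14) fell. Ferritin heavy chain (Fth1) rose by 1.80 ± 0.09, and Slc11a1, a metal transporter of phagocytes, by 3.41 ± 0.17. The metallothionein Mt1 had saturated arrays and was not called, so no fold is given.

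Genes of protein folding stress rose in part. In the endoplasmic reticulum stress list 23 of 31 rose and 4 fell (median 0.99). Ddit3 (CHOP) read 817 and 655 with acetone and 5124 and 5140.0 with shikonin (7.02-fold higher), and Hspa5 (BiP) read 2396 and 2562 against 9221 and 13358 (4.48-fold higher). Xbp1 was not called (-0.07, adjusted p = 0.723). Of 25 heat shock genes 10 rose and 6 fell (median 0.23), with Hsp90aa1 at 2.12 ± 0.16 and Hspa8 at 1.83 ± 0.18, and without acetone replicate 1 or without shikonin replicate 2 the lower count was 3. Against the acetone 4 h arrays 5 were higher and 7 lower (median -0.22), and Hspa8 stood at 0.09 (adjusted p = 0.666). Proteasome subunits rose in 12 of 29 and fell in 3, but only 5 rose without acetone replicate 1 or without shikonin replicate 2, and against the acetone 4 h arrays 3 were higher and 5 lower (median -0.02). Ribosome biogenesis genes rose in 11 and fell in 2 of 33 (median 0.25), but against the acetone 4 h arrays 17 were lower and 2 higher (median -0.44).

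Genes of glucose use and of mitochondrial respiration moved, in the main, in opposite directions. Genes of glucose uptake, glycolysis and the hypoxia response rose in 24 of 29 cases and fell in 3 (median 1.17). Slc2a1 (GLUT1) read 966 and 1282 on the acetone arrays and 8585 and 9961 on the shikonin arrays (8.31-fold higher). Slc2a3 (GLUT3), a transporter of leukocytes and neurons, read 374 and 334 against 7430.4 and 6809.9 (20.1-fold higher), and the lactate exporter Slc16a3 rose by 4.19 ± 0.15. Along glycolysis, Pfkl (1.54 ± 0.17), Pgam1 (1.88 ± 0.18) and Pkm (1.85 ± 0.19) rose, while Pfkm, the muscle isoform of phosphofructokinase, fell (-1.50 ± 0.11). Epas1 (HIF-2alpha) rose by 3.03 ± 0.18. Subunits of oxidative phosphorylation fell by small amounts, 33 of 62 lower and 3 higher (5 higher without acetone replicate 2 or without shikonin replicate 1), with a median of -0.33 and the lowest value, of Ndufs7, at -1.02 ± 0.14. Sdha of complex II rose (1.14 ± 0.23), but stood at 0.28 against the acetone 4 h arrays (adjusted p = 0.321). In the citrate cycle and fatty acid oxidation list 17 of 31 fell and 5 rose, with Dlat of pyruvate dehydrogenase at -1.67 ± 0.18 and citrate synthase (Cs) at -1.28 ± 0.10, whereas Cpt1a, the entry step of fatty acid oxidation, rose (1.45 ± 0.23).

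Detoxification and clock genes fell. Of 34 cytochrome P450 and other xenobiotic genes 22 fell and 6 rose (median -1.11). Cyp2e1 read 54724 and 45252 with acetone and 677 and 645 with shikonin, Cyp2b19, a keratinocyte P450 of mice, fell (-4.82 ± 0.16), and Aldh3a1, an aldehyde dehydrogenase, fell too (-5.11 ± 0.15). The aryl hydrocarbon receptor Ahr (-1.24 ± 0.14) and its target Cyp1a1 (at least 4.57-fold lower) fell, and another target, Cyp1b1, rose (1.59 ± 0.10). Among 13 clock genes 7 fell and 2 rose (median -1.38). Per3 read 4449 and 4189 on the acetone arrays and 344 and 408 on the shikonin arrays (11.5-fold lower), and the output factors Dbp (-2.90 ± 0.16) and Tef (-2.32 ± 0.09) fell with it. Nfil3, which opposes Dbp at the same sites, rose (3.38 ± 0.19). The activators Clock (-0.11) and Arntl (-0.36) were not called. The sources used here do not give the hour of day at which each skin was taken.

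Genes linked to the epithelial-mesenchymal transition did not move one way. Of 22 measured 12 fell (54.5%) and 5 rose (22.7%), beside 33.7% and 28.3% of all named genes, with a median of -0.40. The list pools epithelial and mesenchymal genes, so its counts and median give no direction of a transition. On the epithelial side Esrp1, a splicing regulator, read 20446 and 18693 with acetone and 1254 and 1163 with shikonin (16.2-fold lower), and Ovol1 (-2.09 ± 0.15) and Epcam (-1.92 ± 0.12) fell. On the mesenchymal side Zeb2 rose from 1458 and 2206 to 6236 and 6344 (1.81 ± 0.23), Zeb1 was not called (0.01, adjusted p = 0.939, 95% interval -0.25 to 0.27), and Snai2 (-1.30 ± 0.22) and Twist1 (-1.52 ± 0.17) fell. The mesenchymal factor Prrx1 rose at 24 h (0.97 ± 0.18, other probe 1.93), and its value against the acetone 4 h arrays is not given here. The highest value of the list, 3.77, is the value given above for Mmp9. Vimentin (Vim) was saturated in both groups, so no fold can be given. S100a4, a calcium-binding protein of fibroblasts and leukocytes, stood at -0.33 (adjusted p = 0.0296), a call that was lost without acetone replicate 2 or without either shikonin replicate (-0.36 to -0.19) and against the acetone 4 h arrays (-0.15, adjusted p = 0.269). Zeb2 is also expressed by myeloid cells, whose markers rose on the same arrays, and their part in its rise was not tested.

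Growth factor genes moved both ways. In the EGF, FGF, IGF and PDGF list 9 of 30 rose and 12 fell. The EGF receptor ligand epigen (Epgn) read 1099 and 972 against 12905 and 12469 (12.3-fold higher) and Hbegf rose by 1.79 ± 0.14, while Fgfr2, the receptor of Fgf7 on keratinocytes in its epithelial form, fell (-3.38 ± 0.11) and so did Erbb2 (-1.39 ± 0.15). Egfr was not called (0.16). In the TGF-beta and BMP list 13 of 34 rose and 13 fell (38.2% each way, beside the same 28.3% and 33.7%). Inhba, the activin A subunit, was at least 4.55-fold higher, Tgfb1 rose by 1.19 ± 0.15 and Tgfb2 fell (-1.58 ± 0.21). Wnt and Notch genes fell in 22 of 32 cases and rose in 2 (median -1.12), among them Wnt2 (-2.67 ± 0.14), the feedback target Axin2 (at least 4.08-fold lower) and the Notch target Hes1 (-1.30 ± 0.13). The endothelial Notch genes Dll4 (0.94 ± 0.15) and Notch4 (0.99 ± 0.15) were the 2 that rose.

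The 24 h effect was partly shared with 4 h and partly its own. Of the 4022 probes higher at 24 h, 1835 (45.6%) were also higher at 4 h, 460 (11.4%) were lower and 1727 (42.9%) were not called. At 4 h 46.6% of all probes were called, 21.2% higher and 25.4% lower. Of the 4481 lower at 24 h, 2078 were lower at 4 h, 368 higher and 2035 not called. A probe called at 1 time only is not shown to differ between times, and the difference of effects itself passed in 43.3% of probes. It passed in 1151 of the 1727 probes that were higher at 24 h and not called at 4 h. The 24 h and 4 h effects have separate acetone arrays. Against the acetone 4 h arrays, 74.0% of the 6189 genes called at 24 h were called the same way, 1532 were not called and 75 were called the other way.

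**Figure D4:**
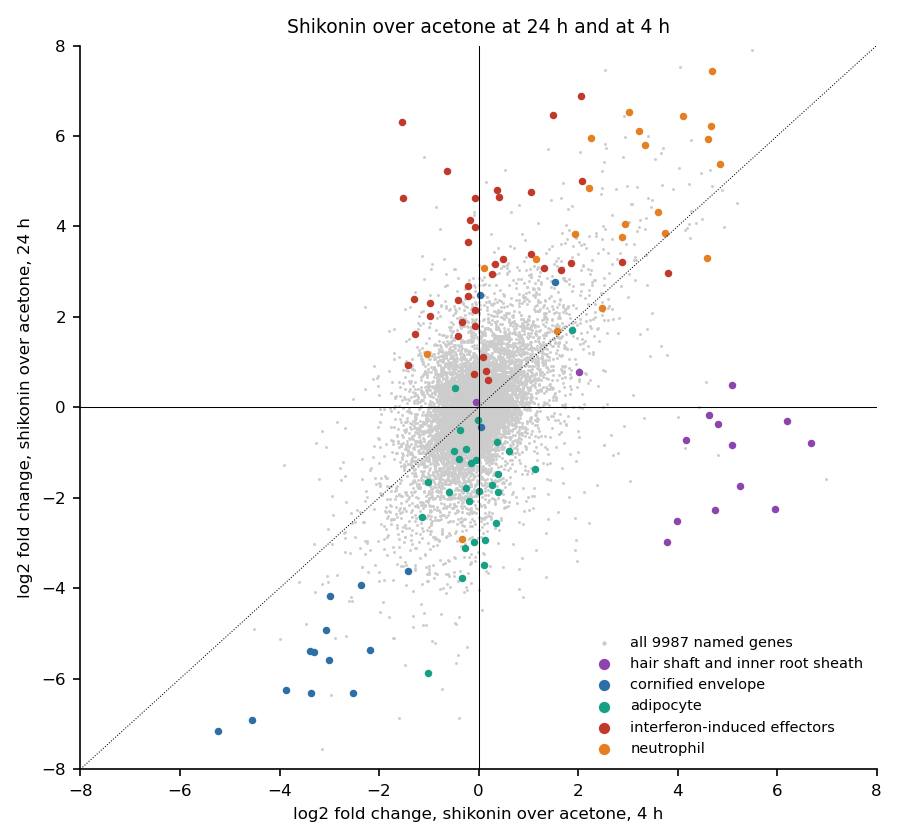
Log2 fold change of shikonin over acetone at 24 h against that at 4 h for all 9987 named genes (grey), with hair, cornified envelope, adipocyte, interferon effector and neutrophil genes in colour and the line of equal effects dotted. Interferon effectors lie high at 24 h and near 0 at 4 h (medians 3.06 and -0.07), hair genes the other way (medians -0.75 and 4.79), and neutrophil genes have medians of 4.19 at 24 h and 2.98 at 4 h.

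Genes often used as references moved too. Of 12 measured, 8 rose and 1 fell, with a median of 0.52. Actg1, the cytoplasmic gamma-actin, read 2386 and 1980.3 with acetone and 7638 and 8925 with shikonin (1.93 ± 0.27), Pgk1 rose by 1.38 ± 0.09 and Rplp0 by 1.07 ± 0.38, with its other probe not called at 0.25 and its own call lost without any 1 of the 24 h arrays (0.79 to 1.36) and against the acetone 4 h arrays (-0.24, adjusted p = 0.615). Hprt (-0.13, 95% interval -0.37 to 0.11) and Polr2a (-0.10, 95% interval -0.48 to 0.28) were not called.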

How the data were processed

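The report compares the 4 one-colour arrays of the 24 h groups, and the 4 arrays of the 4 h groups entered the same model. Per the methods, the authors extracted total RNA with TRIzol, amplified it to Cy5-labelled antisense RNA, used the Mouse OneArray with GenePix for spot intensities and made present or absent calls in Spotfire. The deposited values are linear fluorescence intensities, 1 per probe and array. Their medians were close (1129 to 1130), so they were taken as already normalized. The sources used here state neither the normalization nor the background correction. Probes blank on all arrays (16069 of 29922) were not used.

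Intensities were raised to the 5th percentile (203) and taken to log2, which is not a deposited scale. A model of 4 group means went through lmFit and a trended eBayes (limma 3.58.1 under R 4.3.3, 4 residual degrees of freedom), with Benjamini-Hochberg adjustment over 13853 probes and a threshold of 0.05. Contrasts were shikonin minus acetone at 24 h and at 4 h, their difference, acetone 24 h minus 4 h, and shikonin 24 h minus acetone 4 h. A gene was read from its brightest probe by mean over the 8 arrays (1379 genes had more than 1 probe). Other probes of a gene could give another size of change. Symbols came from the platform annotation, with 1814 updated, and promoters from RefSeq (GRCm38.p6). The NF-kB motif was the usual 10-letter consensus, and all motifs were searched on both strands. The fit was tested on simulated data. Python 3.11.15 with matplotlib 3.10.9 drew the figures.

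Named were the 25 largest changes each way, up to 3 of the highest and lowest called members of each list, 9 genes that the study names (of which Gapdh had no values used here), and the 10 largest differences between times each way. A further 107 list members were named after their values were seen. The members and lists were chosen with earlier results of these data known. Alternatives covered floors, normalization, filters, probe choice, thresholds, pairing, the replicate block, array weights, the variance trend, single arrays left out, the 24 h arrays fitted alone and the acetone 4 h arrays as control. The microRNA arrays and protein data were not analysed.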

Additional observations from a re-analysis of the deposited data

Results flagged for a closer look

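The effect of shikonin differed between the times in 5999 probes by limma's test of the difference of effects, and the 10 largest differences each way are given here as the 24 h log2 fold change minus that at 4 h. They rest on 2 arrays a group, and the acetone arrays of the 2 times differed as well. The lower ones were led by Idi2 (-8.57), an isopentenyl diphosphate isomerase, and by hair follicle genes. These were Krt71 (-8.20), Krt26 (-7.45), Krt27 (-7.02), S100a3 (-7.01), Krt73 (-6.77), Krt33a (-6.49), Krt25 (-6.49) and Crym (-5.92), with the barrier lipid gene Fa2h (-6.46) among them. All the hair genes of this group had risen at 4 h, by 3.78 (Krt73) to 6.67 (Krt26). The higher ones were led by interferon-induced genes, namely Ifit2 (7.86), Cxcl10 (6.63), Ifi44 (6.14), Ifit3 (5.85), Oasl1 (4.95) and Rsad2 (4.83). Sprr2f (5.28), Cxcl5 (4.93), Saa3 (4.92) and the Fc receptor gene Fcgr1 (4.83) completed them. In acetone skin the genes of this second group were themselves lower at 24 h than at 4 h, with log2 differences of -4.55 to -1.29. With 2 arrays a group, no value was tested against the other values of its own group.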

How the results depend on the processing

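The main counts were 4022 probes higher and 4481 lower at 24 h and 5999 with a difference of effects. Without the dimmer 50% of probes, where fewer probes are tested, they were 2068, 2555 and 3509. With a 2-fold change required as well they were 1997, 1990 and 3376, and at an adjusted p under 0.01 the differences numbered 3810. At least 2-fold changes in both pairs of arrays numbered 1725 higher and 1702 lower, 926 and 939 without the dimmer probes, and 912 and 896 at 3-fold. With 1 array left out at a time, the counts ranged from 3344 to 4089 higher, from 3724 to 4578 lower and from 4436 to 6013 for the difference. With the replicate number as a block they were 4075, 4464 and 5898, and none of the 409 called genes that the naming rule or the text gives lost its call. Deviations of arrays with the same number correlated between -0.21 and 0.21. With 2 arrays a group, these values cannot settle whether the numbers pair the samples. Of those 409 genes, 32 lost the call with the floor at the 25th percentile and 4 under cyclic loess, and 23 did so without 1 of the 24 h arrays. With the acetone 4 h arrays as control, which mixes time with treatment, 35 lost it with the sign kept, and 14 others changed sign. The latter were Itga3 (-0.54), Sprr2h (-0.35), Dsg3 (-0.12), Tph1 (-1.02), Psmb8 (-0.0078), Pdk1 (0.54), Sdhb (-0.075), Pdk4 (-0.14), Rplp0 (-0.24), Npm1 (-0.089), Tsr1 (-0.65), Fosl1 (-0.0017), Iigp1 (-1.46) and Krt16 (-0.74). Of these 14, only Itga3, Tph1, Pdk1, Iigp1 and Krt16 were called with the new sign, and the rest lost their call too. The medians of the small proline-rich (-0.98), ribosome biogenesis (-0.44), heat shock (-0.22), proteasome (-0.02) and complement (-0.08) lists changed sign too, the last also without the dimmer probes (-0.02) and without acetone 24 h replicate 1 (-0.04). The mean of all probes of Nolc1 was 0.10, with the sign opposite to the probe that stood for it. The difference of effects has no value from the 24 h arrays alone or with that control. The causes were not tested. The limits are 2 arrays a group with no stated link to animals, an unstated normalization, and the floor and saturation, which turn folds into bounds.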

Other observations

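Cathepsins, stefins and lysosome membrane genes rose in 12 of 22 cases and fell in 3 (median 0.42). Ctss, the cathepsin of antigen-presenting cells, read 6000.1 and 7371 on the acetone arrays and 28723 and 31086 on the shikonin arrays (2.17 ± 0.16), and Ctse, an aspartic protease of endosomes, rose by 3.17 ± 0.22. Ctsk, a collagen-degrading cathepsin of fibroblasts and osteoclasts, fell (-1.68 ± 0.16). Serpins divided, 6 higher (31.6%) and 9 lower (47.4%) of 19, beside 28.3% and 33.7% of all named genes (median -0.39). Serpinb2, the plasminogen activator inhibitor of type 2, rose by 2.58 ± 0.11, and Serpinb5 (maspin), an epithelial serpin, fell (-2.16 ± 0.31). Serpina12 (vaspin), an adipokine also made in epidermis, read 7031 and 7150.5 with acetone against 154 and 128 with shikonin (at least 34.9-fold lower).

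Of 9 genes of Schwann cells and nerve 6 fell and 2 rose. The myelin factor Egr2 (-1.59 ± 0.11) and myelin basic protein, Mbp (-1.57 ± 0.16), fell, and Cnp, a myelin enzyme, rose (1.02 ± 0.13). Ribosomal protein genes showed small changes, 8 lower and 3 higher of 20, from Rpl22 at -1.32 ± 0.13 to Rpl38 at 0.65 ± 0.11 apart from Rplp0. The saturated members Rpl41, Rps9 and Rps21 give no fold. Il10, an anti-inflammatory cytokine, was at least 2.87-fold higher.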
